A study of Mus musculus with 10 samples.

Results

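A set of 10 genes that carry out or sense metabolic immunosuppression in tumors was followed across the study: Ido1 of the tryptophan route, Nos2, Arg1 and Arg2 of the arginine route, Nt5e, Adora2a and Adora2b of the adenosine route, and Ptgs1, Ptgs2 and Ptges of the prostaglandin E2 route. They were picked by gene symbol from a table of 24202 symbols, all 10 were found, and all 10 passed the minimum mean of 10 normalized counts that left 16767 genes for testing. All but Adora2a and Adora2b, which encode receptors, encode enzymes. The data were bulk RNA-seq profiles of whole tumors, 5 from the PIIO-1 group and 5 from the PBS group.

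PIIO-1 is an antibody to GARP, the cell-surface docking protein for latent TGF-beta that the gene Lrrc32 encodes; the sample titles call these tumors a4D3. All the mice, PIIO-1 and PBS alike, were hLrrc32 knock-in animals, carried the same mouse MB-49 bladder cancer line under the skin of the right flank (100000 cells) and had their tumors taken on day 10. PIIO-1 was given into the peritoneum at 200 ug per mouse on days 6 and 9, and the PBS group is described by its label alone. Values are for whole tumors, so cancer cells and every infiltrating cell type contribute to them, and for any of these genes fewer cells of a type and less RNA per cell cannot be told apart. The labels do not say whether each tumor came from a separate mouse, so p-values measure the spread between these samples.

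Tryptophan, arginine, extracellular ATP and arachidonic acid each feed a route that restrains T cells. IDO1 opens the tryptophan ring on the way to kynurenine, which depletes an amino acid T cells need and makes ligands for the aryl hydrocarbon receptor. Inducible nitric oxide synthase (Nos2) and the arginases (Arg1 in the cytosol, Arg2 in mitochondria) compete for arginine, and in tumors all of them are known from macrophages and other myeloid cells. CD73 (Nt5e) makes adenosine outside the cell from the AMP that CD39 (Entpd1) leaves, and the receptors encoded by Adora2a and Adora2b raise cyclic AMP in cells that meet it. The cyclooxygenases COX-1 (Ptgs1) and COX-2 (Ptgs2) make prostaglandin H2, which the microsomal synthase encoded by Ptges turns into prostaglandin E2.

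Recovered depth was 29689555 to 35299028 reads per PIIO-1 tumor and 18843192 to 37581521 reads per PBS tumor, the lowest being PBS tumor 4. The tumors expressed the simple-epithelial keratins Krt8 (59166 ± 5744 normalized counts in PIIO-1 tumors and 56281 ± 5016 in PBS tumors) and Krt18, while the urothelial marker Upk3a stayed under the minimum mean and Epcam was low at a mean of 17.7 normalized counts in PIIO-1 tumors and 24.0 in PBS tumors. PIIO-1 tumor 5 had the highest summed level of the neutrophil, dendritic cell, T cell, B cell, mast cell, platelet, red blood cell and epithelial marker lists. The differences of Arg2, Nt5e, Adora2b and Ptgs2 and some correlations are also given without it below. Differences of partner genes and sums of lists include it.

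Promoter sequence was at hand for 5 of the 10 genes (RefSeq, mouse build GRCm38.p6, 250 bases before to 50 bases after the annotated start). Those of Ptgs2, Nt5e and Adora2b are shown because Nt5e was correlated with each of the other 2 genes over the tumors, as described further on. They lie in GRCm38.p6 at these places: Ptgs2 at chr1:150099781-150100080, Nt5e at chr9:88327359-88327658 and Adora2b at chr11:62248734-62249033, all on the plus strand and read 5′ to 3′. The last 50 bases of each were held by 1 GENCODE transcript, of 2 annotated for Ptgs2, 4 for Nt5e and 1 for Adora2b. The Nt5e stretch lies wholly inside the gene as GENCODE annotates it, from base 88327197 on. Its start site is thus not the first of that gene, and positions are counted from the RefSeq start. Capitals mark the matches to 3 motifs searched on both strands.
Ptgs2: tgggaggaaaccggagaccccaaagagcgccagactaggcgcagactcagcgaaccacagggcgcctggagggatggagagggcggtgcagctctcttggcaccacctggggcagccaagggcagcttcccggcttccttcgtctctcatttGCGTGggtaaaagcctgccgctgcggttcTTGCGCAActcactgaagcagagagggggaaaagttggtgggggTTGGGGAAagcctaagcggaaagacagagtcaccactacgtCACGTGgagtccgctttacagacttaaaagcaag
Nt5e: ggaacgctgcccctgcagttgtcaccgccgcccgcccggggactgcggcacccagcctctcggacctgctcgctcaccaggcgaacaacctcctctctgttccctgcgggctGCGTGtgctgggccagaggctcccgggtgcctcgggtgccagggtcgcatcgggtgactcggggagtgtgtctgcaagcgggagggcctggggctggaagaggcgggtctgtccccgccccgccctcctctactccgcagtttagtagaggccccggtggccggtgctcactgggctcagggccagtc
Adora2b: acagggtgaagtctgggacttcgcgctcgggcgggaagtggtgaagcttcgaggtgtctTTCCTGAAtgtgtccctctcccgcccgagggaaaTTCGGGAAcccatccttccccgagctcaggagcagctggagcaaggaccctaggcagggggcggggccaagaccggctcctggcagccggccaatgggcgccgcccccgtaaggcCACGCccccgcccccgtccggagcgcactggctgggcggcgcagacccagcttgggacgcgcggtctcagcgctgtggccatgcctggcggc
GCGTG, the core read by hypoxia-inducible factors and by the dioxin receptor complex, stood once in each of them, at bases -98 to -94 of Ptgs2, -138 to -134 of Nt5e and, on the reverse strand as CACGC, -42 to -38 of Adora2b. It is common, standing in 32.4% of all 32851 promoters of this length. The C/EBP pattern TTNNGNAA stood at 2 places in Ptgs2 (-69 to -62 and -25 to -18) and at 2 in Adora2b (-191 to -184 and -157 to -150), and it is found in 40.7% of promoters. ACGTG, the other hypoxia core (19.6% of promoters), was in Ptgs2 on both strands of the palindrome CACGTG at bases 17 to 22, so its matches there overlap. Of 9 motifs searched, 6 had no match in any of the 5 promoters: the interferon-gamma site TTCNNNGAA (8.30% of promoters), the interferon-stimulated response element core, GAAA, any 2 bases and GAAA again (3.44%), the cyclic AMP element TGACGTCA (1.79%), the AP-1 site TGANTCA (7.81%), the NF-kB consensus (8.46%) and TATAAA (13.6%). A match is a description of these letters, not of a bound site.

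Per kilobase of merged exons, the 10 genes spanned a wide range of levels, and the order was Arg1, Ptges, Ptgs2, Nos2, Arg2, Ptgs1, Adora2a, Ido1, Adora2b and Nt5e. Arg1 averaged 9257 normalized counts per kilobase over the 10 tumors, Ptges 4106, Ptgs2 2607 and Nos2 1533. A second tier held Arg2 at 276, Ptgs1 at 175, Adora2a at 154 and Ido1 at 152, and the lowest were Adora2b at 88.1 and Nt5e at 21.9 normalized counts per kilobase. Arg1, Ptges, Ptgs2 and Nos2 were thus above the adenosine receptors and CD73 in every tumor on this scale, while Ptgs1 was above Adora2a in 7 of 10 tumors. Neighbours whose ranges over tumors did not overlap were Arg1 above Ptges, Nos2 above Arg2 and Adora2b above Nt5e. The other neighbours overlapped: Ptgs2 was above Nos2 in 10 of 10 tumors and Ptges above Ptgs2 in 9, but Adora2a was above Ido1 in 6 only. With the longest transcript as the length the order was the same, although Nt5e then stood at 47.2 and Arg1 at 13964 normalized counts per kilobase. The ranges of Adora2b (57.6 to 135) and Nt5e (32.2 to 105) overlapped on that scale.

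**Figure D1:**
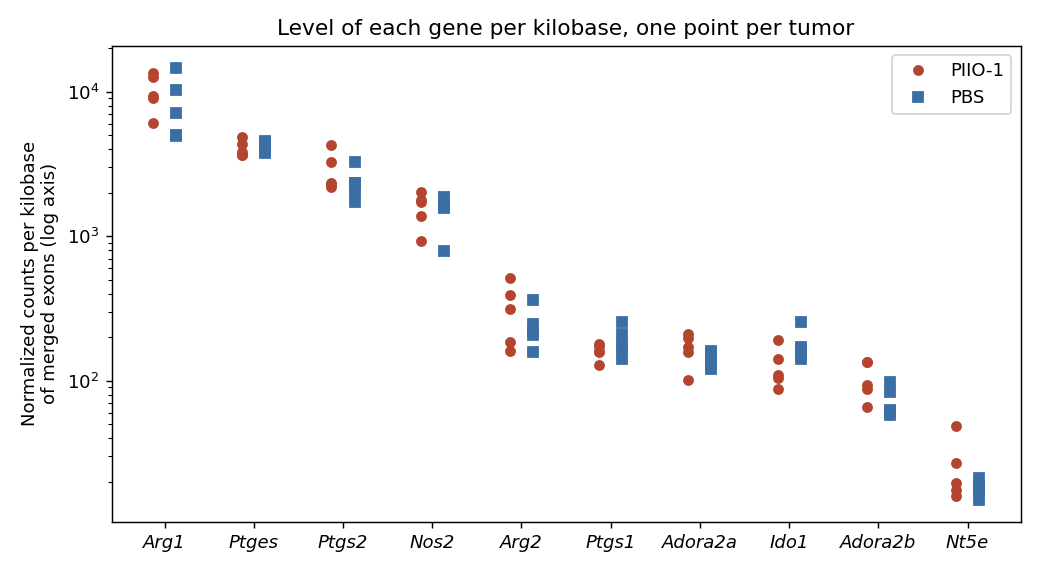
Level of each of the 10 genes in normalized counts per kilobase of merged exons (log axis), one point per tumor, PIIO-1 tumors as circles left of PBS tumors as squares. Arg1, Ptges, Ptgs2 and Nos2 lie above the other 6 genes in every tumor, and Nt5e lies lowest.

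Against PBS, none of the 10 genes passed the test over the whole table in PIIO-1 tumors. The test was limma on log2(normalized count + 1) with Benjamini-Hochberg adjustment over 16767 genes, which called 0.00% of all genes at an adjusted p under 0.05; at an unadjusted p under 0.05 it picked 5.63% of genes, and 2 of the 10, Ido1 lower (2.77% of genes in that direction) and Adora2b higher (2.86%). edgeR and DESeq2 on recovered reads called 0 of the 10 as well, with 0 and 3 genes called over the table (0.00% and 0.0179%) and 5.81% and 6.04% of genes at unadjusted p under 0.05. The difference was positive for 7 of the 10 (51.1% of all genes), with a median of 0.24 on the log2 scale against 0.0027 over all genes. PIIO-1 and PBS tumors overlapped for each of the 10 (0.853% of all genes did not overlap, 0.394% higher and 0.459% lower in PIIO-1). The spread was wide for most of them: Arg2 varied more within groups than 91.9% of tested genes and Arg1 more than 91.5%, while Ptges varied more than 45.7%.

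**Figure D2:**
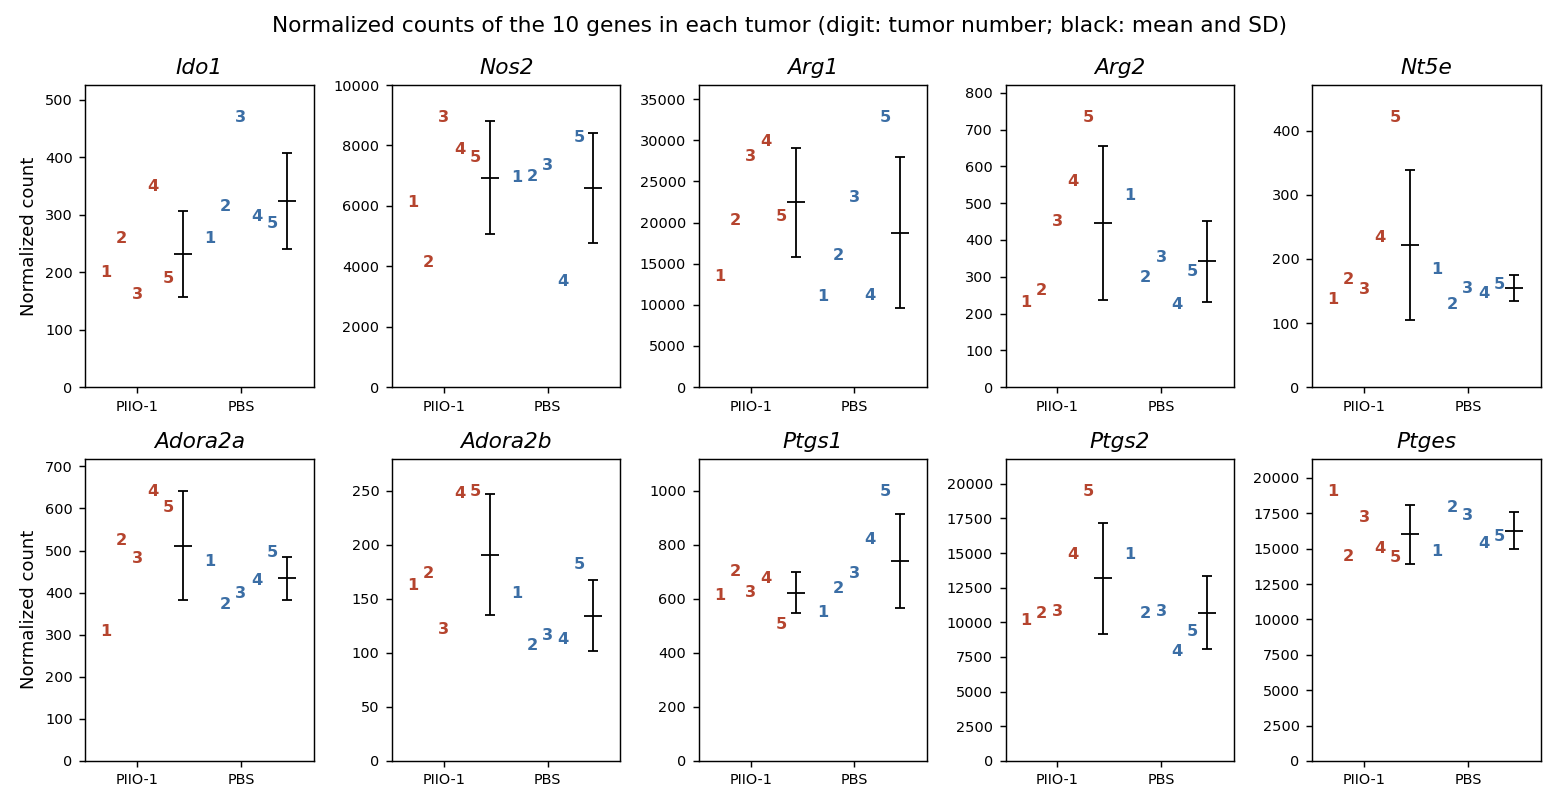
Normalized counts of each gene in the 5 PIIO-1 tumors (left, red) and the 5 PBS tumors (right, blue), each tumor drawn as its number, with the mean and SD in black; all axes start at 0. The groups overlap in every panel, and PIIO-1 tumor 5 is the highest of all for Arg2, Nt5e, Adora2b and Ptgs2.

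Ido1 (chr8:24584136-24597009, minus strand, GRCm38) was 1 of the 2 genes of the set at an unadjusted p under 0.05 in limma. It had 199.9, 259, 161, 349 and 189.7 normalized counts in PIIO-1 tumors 1 to 5, against 259, 314, 469.5, 296 and 284 in PBS tumors 1 to 5. PIIO-1 tumors 1, 3 and 5 were below every PBS tumor, PIIO-1 tumor 4 was above all but PBS tumor 3, and the groups overlapped. The means were 232 ± 74.8 in PIIO-1 and 325 ± 83.5 in PBS (SD, n = 5 each), and limma put the difference at -0.51 (SE 0.21, 95% interval -0.97 to -0.040) on the log2 scale, or 0.704 times the PBS level, with an adjusted p of 0.837. Without PBS tumor 3, the highest, the difference was -0.37, and without PIIO-1 tumor 4 it was -0.67.

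None of the rest of the tryptophan route passed the test. Of its 24 listed genes, 18 passed the minimum mean, 0 were called in either direction, and Ido1 was the sole one at unadjusted p under 0.05; 10 of the 18 were positive, with a median of 0.075. Ido2, the IDO1 paralog, averaged 879.6 ± 156 normalized counts in PIIO-1 tumors and 966 ± 155 in PBS tumors, a log2 difference of -0.14 (SE 0.14). Afmid, the formamidase that makes kynurenine, was 425 ± 46.7 in PIIO-1 and 483 ± 31.7 in PBS (-0.19, SE 0.086, adjusted p = 0.837 in limma), and Wars, the tryptophanyl-tRNA synthetase that interferon-gamma induces, was 3905 ± 419 in PIIO-1 and 4296 ± 172 in PBS (-0.14, SE 0.068). All 3 values point lower in PIIO-1 without passing the test. On the other side, the aryl hydrocarbon receptor Ahr and its target Tiparp both had log2 differences of 0.30 (SE 0.22 and 0.14). The enzymes after kynurenine, Kmo at 0.11 (SE 0.28) and Kynu at 0.32 (SE 0.39), and the liver-type dioxygenase Tdo2 at 0.48 (SE 0.39, 13.2 normalized counts in PIIO-1 and 10.1 in PBS), were positive with wide errors. Afmid, Ahr and Tiparp share exon bases with other annotated genes, and the strand setting of the counting is not given, so reads of the partners could stand in their values.

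Ido1 is a classical interferon-gamma target, and its level was set beside 8 genes of that response. All 8 had negative log2 differences, as had 8196 of all 16767 genes tested. Their median was -0.25, and the smallest was that of Irf1 (-0.021). The summed level was 42879 to 87289 normalized counts in PIIO-1 tumors (median 57066) and 57708 to 84982 in PBS tumors (median 66969). Over the 10 tumors the relation of Ido1 with the interferon-gamma score did not pass (Pearson r = 0.56, Spearman rho = 0.52, adjusted permutation p = 0.233 over the 170 relations of genes with lists). PIIO-1 tumor 4 was the highest PIIO-1 tumor for both. PBS tumor 1, however, had the highest score of all 10 tumors and the lowest Ido1 of the PBS tumors. The part of this response in the Ido1 difference was not tested.

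Nos2 (chr11:78920787-78960254, plus strand), the inducible nitric oxide synthase, stood at 6125, 4111, 8933, 7875 and 7598 normalized counts in PIIO-1 tumors 1 to 5, against 6934, 6983, 7337, 3486 and 8255 in PBS tumors 1 to 5. PIIO-1 tumor 2 and PBS tumor 4 were the lowest of their groups, and the others overlapped closely. Group means were 6928 ± 1867 in PIIO-1 and 6599 ± 1819 in PBS (SD, n = 5 each), a log2 difference of 0.079 (SE 0.25, 95% interval -0.46 to 0.62, limma adjusted p = 0.973). The sign was not stable: without PBS tumor 4 the difference was -0.14.

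Arg1 (chr10:24915221-24927484, minus strand), the cytosolic arginase of alternatively activated macrophages, had 13449, 20303, 28022, 29875 and 20692 normalized counts in PIIO-1 tumors 1 to 5, against 11059, 15943, 22993, 11127 and 32784 in PBS tumors 1 to 5. The highest and the lowest tumor were both PBS tumors, 2.96-fold apart. The means of 22468 ± 6612 in PIIO-1 and 18781 ± 9221 in PBS gave a log2 difference of 0.34 (SE 0.31, 95% interval -0.34 to 1.01, limma adjusted p = 0.881). Leaving out single tumors gave 0.18 (PBS tumor 1 missing) to 0.57 (PBS tumor 5 missing). As a ratio to PBS, the interval over all tumors runs from 0.791 to 2.01. Arg1 had a higher level than 99.1% of tested genes.

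Arg2 (chr12:79130777-79156301, plus strand), the mitochondrial arginase, had 229.8, 263, 450.3, 559 and 733 normalized counts in PIIO-1 tumors 1 to 5, against 519.7, 297, 353, 225 and 313 in PBS tumors 1 to 5. PIIO-1 tumors 4 and 5 were above every PBS tumor, and PIIO-1 tumors 1 and 2 were below all but PBS tumor 4. Its mean was 447 ± 209 in PIIO-1 and 342 ± 109.8 in PBS, with a log2 difference of 0.31 (SE 0.32, 95% interval -0.38 to 1.00, limma adjusted p = 0.892) that was 0.095 without PIIO-1 tumor 5 and 0.51 when PIIO-1 tumor 1 was left out. Arg2 shares 285 exon bases with Vti1b and 116 with Gm48780 on the other strand.

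The RNA levels of Arg1 and Nos2 were compared as Arg1 over Nos2 per kilobase of merged exons. Enzyme activity and arginine use were not measured. This ratio was 4.35, 9.78, 6.21, 7.51 and 5.39 in PIIO-1 tumors 1 to 5 and 3.16, 4.52, 6.21, 6.32 and 7.86 in PBS tumors 1 to 5. Arg1 exceeded Nos2 in every tumor, and the groups overlapped, with PIIO-1 tumor 2 above every PBS tumor and PBS tumor 1 below every PIIO-1 tumor. Of 24 listed genes of the arginine route, 21 were tested, 0 were called and 0 reached an unadjusted p under 0.05; 11 were positive, with a median log2 difference of 0.031. Ass1, which rebuilds arginine from citrulline, was -0.18 (SE 0.11), Gch1, which starts synthesis of the nitric oxide synthase cofactor, was 0.15 (SE 0.091), and Asl, the lyase after Ass1, was 0.082 (SE 0.056). The arginine carrier Slc7a2 was 0.17 (SE 0.36), the endothelial synthase Nos3 was -0.043 (SE 0.24), and the neuronal Nos1 stayed under the minimum mean at 5.84 normalized counts in PIIO-1 and 8.70 in PBS. Odc1, which turns the ornithine made by arginase into polyamines, was abundant and even, at 20473 ± 852 normalized counts in PIIO-1 and 19446 ± 1360.3 in PBS (log2 difference 0.076, SE 0.058). Nos3 and Slc7a2 share exon bases with genes on the other strand.

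Nt5e (chr9:88327197-88372092, plus strand), which encodes CD73, had 137, 168, 152, 233 and 421 normalized counts in PIIO-1 tumors 1 to 5, against 183, 129, 154, 147 and 160.2 in PBS tumors 1 to 5. PIIO-1 tumors 4 and 5 were above every PBS tumor, and the other 3 lay among the PBS tumors. The SD was 117 around a mean of 222 in PIIO-1 and 19.95 around 155 in PBS, and the log2 difference was 0.40 (SE 0.26, 95% interval -0.17 to 0.97, limma adjusted p = 0.844). Without PIIO-1 tumor 5 it was 0.14.

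Adora2b (chr11:62248984-62266453, plus strand), the low-affinity adenosine receptor, had 162, 173, 122, 248 and 249.6 normalized counts in PIIO-1 tumors 1 to 5, against 155, 106, 116, 112 and 182 in PBS tumors 1 to 5. PIIO-1 tumors 4 and 5 were above all PBS tumors, PIIO-1 tumor 3 was among the low PBS tumors, and the groups overlapped. Its means of 191 ± 56.1 in PIIO-1 and 134 ± 32.7 in PBS gave a log2 difference of 0.48 (SE 0.22, 95% interval 0.0066 to 0.96), or 1.40 times the PBS level, with a limma adjusted p of 0.837. Without PIIO-1 tumor 5 it was 0.38. Red blood cell markers moved the same way, and all 5 were higher on average in PIIO-1 (51.1% of all genes had a positive log2 difference). Their sum was 8372 to 58643 normalized counts in PIIO-1 tumors (median 20043) and 5488 to 12848 in PBS tumors (median 6201). The part of these markers in the Adora2b difference was not tested.

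Adora2a (chr10:75316877-75334784, plus strand), the high-affinity receptor of T cells and myeloid cells, had 308, 525, 482, 641 and 602 normalized counts in PIIO-1 tumors 1 to 5, against 475, 373, 398, 429 and 496 in PBS tumors 1 to 5. PIIO-1 tumors 2, 4 and 5 were above every PBS tumor and PIIO-1 tumor 1 was below them all. The means were 512 ± 129.7 in PIIO-1 and 434 ± 51.4 in PBS (log2 difference 0.20, SE 0.17, 95% interval -0.18 to 0.58, limma adjusted p = 0.878). With each tumor left out in turn, the difference lay between 0.11, when PIIO-1 tumor 4 was missing, and 0.37, when PIIO-1 tumor 1 was.

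Around these genes, 21 of the adenosine route were listed and 19 tested; 0 were called, 1 reached an unadjusted p under 0.05 in each direction, and 9 were positive, with a median log2 difference of -0.011. The one lower was Cd38, whose ectoenzyme breaks down NAD and feeds an alternative path to adenosine, at 975 ± 183 normalized counts in PIIO-1 and 1187 ± 146 in PBS (-0.29, SE 0.12, limma adjusted p = 0.837); the one higher was Adora2b. Entpd1, the CD39 that supplies AMP, was 4209.6 ± 1400.4 in PIIO-1 and 3945 ± 994 in PBS (0.065, SE 0.22), and Entpd3 was 0.19 (SE 0.11). The adenosine transporter Slc29a1 was -0.088 (SE 0.056), the deaminase Ada was -0.086 (SE 0.091) and the receptor Adora3 was -0.11 (SE 0.17). Adora3 shares exon bases with Tmigd3 on its own strand and Slc29a1 with a gene on the other strand, and Adora1 was not analysed here.

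The receptors signal through cyclic AMP, and 8 genes that cyclic AMP is known to induce were set beside them. All 8 had positive log2 differences (51.1% of all genes had), with a median of 0.33. Of them, 0 were called and 2 reached an unadjusted p under 0.05 in limma (5.63% of all genes). The list was written with earlier results of these data known. Sik1, a kinase of that response, was 3408 ± 466 normalized counts in PIIO-1 and 2636 ± 394 in PBS (0.37, SE 0.11, limma adjusted p = 0.837), and Areg, the growth factor amphiregulin, was 115 ± 47.7 in PIIO-1 and 72.1 ± 14.6 in PBS (0.59, SE 0.26, adjusted p = 0.837). Nr4a1 was 0.34 (SE 0.20). Immediate early genes, many of which answer both to cyclic AMP and to handling of cells, were also all positive, 7 of 7 with a median of 0.47, and their part in these values was not tested.

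Ptgs2 (chr1:150100031-150108227, plus strand), the inducible COX-2, had 10114, 10606, 10787, 14932 and 19475 normalized counts in PIIO-1 tumors 1 to 5, against 14883, 10635, 10761, 7883 and 9329 in PBS tumors 1 to 5. PIIO-1 tumors 1, 2 and 3 and PBS tumors 2 and 3 were close together, PIIO-1 tumors 4 and 5 and PBS tumor 1 were higher, and PBS tumors 4 and 5 were lower. The means were 13183 ± 4014 in PIIO-1 and 10698 ± 2613 in PBS (log2 difference 0.29, SE 0.20, 95% interval -0.15 to 0.72, limma adjusted p = 0.858), and the difference was 0.13 without PIIO-1 tumor 5.

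Ptgs1 (chr2:36230426-36252272, plus strand), the constitutive COX-1, had 612, 699.7, 622, 676 and 503 normalized counts in PIIO-1 tumors 1 to 5, against 548, 638, 695, 818 and 998 in PBS tumors 1 to 5. PBS tumors 4 and 5 were above every PIIO-1 tumor and PIIO-1 tumor 5 was the lowest. The means of 623 ± 76.3 in PIIO-1 and 739 ± 175 in PBS gave a log2 difference of -0.23 (SE 0.15, 95% interval -0.55 to 0.098, limma adjusted p = 0.844), and it was -0.11 without PBS tumor 5. Ptgs1 shares 148 exon bases with Gm43621 on the other strand.

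The COX-2 to COX-1 ratio per kilobase was 14.0, 12.9, 14.7, 18.7 and 32.8 in PIIO-1 tumors 1 to 5 and 23.0, 14.1, 13.1, 8.18 and 7.93 in PBS tumors 1 to 5. PIIO-1 tumor 5 was the highest and PBS tumors 4 and 5 the lowest, with PBS tumor 1 second among all 10.

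Ptges (chr2:30889471-30929863, minus strand), the synthase that ends the route to prostaglandin E2, was the steadiest of the 10 genes. It had 19076, 14414, 17217, 15044 and 14352 normalized counts in PIIO-1 tumors 1 to 5, against 14802, 17904, 17320.5, 15403 and 15882 in PBS tumors 1 to 5. Highest and lowest tumor were 1.33-fold apart, both in the PIIO-1 group. With means of 16021 ± 2067 in PIIO-1 and 16262 ± 1307 in PBS, the log2 difference was -0.027 (SE 0.088, limma adjusted p = 0.974), and its 95% interval of -0.22 to 0.16 was the narrowest of the set.

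Of 27 listed genes of the prostaglandin route, 25 were tested, 0 were called, 1 was higher at an unadjusted p under 0.05 and 0 lower, and 15 were positive with a median log2 difference of 0.090. That one was Ptgr1, a reductase that inactivates eicosanoids, at 443 ± 57.6 normalized counts in PIIO-1 and 361 ± 48.0 in PBS (0.30, SE 0.11, limma adjusted p = 0.837). Among the receptors for prostaglandin E2, Ptger3 was 41.9 ± 28.0 normalized counts in PIIO-1 and 17.9 ± 4.76 in PBS (0.95, SE 0.43, adjusted p = 0.837), with 3 PIIO-1 tumors above every PBS tumor and PIIO-1 tumor 5 at 82.6. Ptger2 was 0.29 (SE 0.22) and Ptger4 was 0.19 (SE 0.19), the receptors that raise cyclic AMP. Hpgd, which breaks prostaglandin E2 down, was 0.50 (SE 0.34), Alox5ap, the partner of 5-lipoxygenase, was 0.37 (SE 0.18), and Pla2g4a, which frees arachidonic acid, was -0.13 (SE 0.12). Ptger2, Ptger4 and Alox5ap share exon bases with genes on the other strand.

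**Figure D3:**
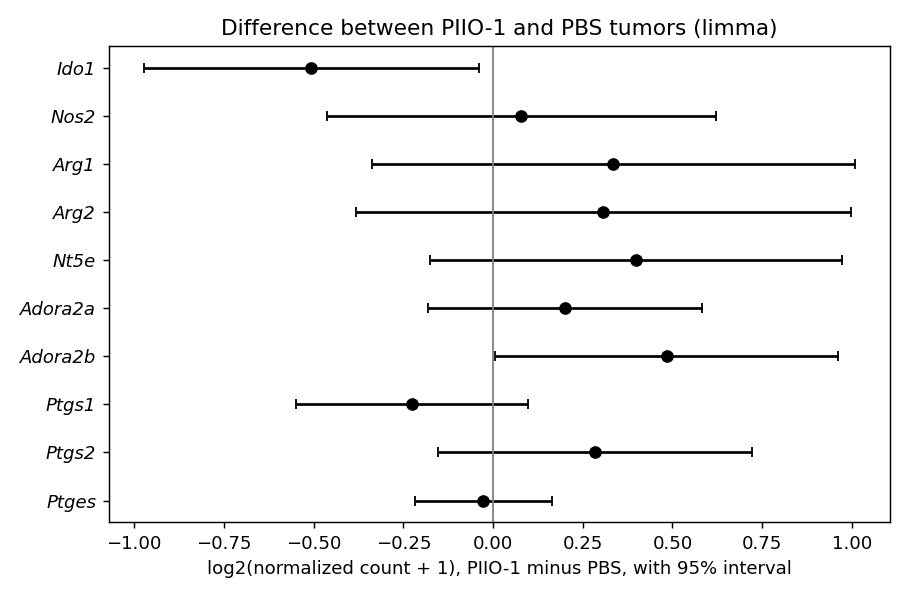
Difference between PIIO-1 and PBS tumors on the log2(normalized count + 1) scale for the 10 genes, with the 95% interval from limma; right of 0 is higher in PIIO-1. The interval lies below 0 for Ido1 and just above 0 for Adora2b before adjustment, and it is narrowest for Ptges.

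Several of the genes varied together from tumor to tumor when all 10 tumors were pooled. Of the 45 pairs, 12 were correlated at an unadjusted permutation p under 0.05 and 5 at an adjusted p under 0.05. Arg2 and Ptgs2, of different routes, were the closest (Pearson r = 0.91, Spearman rho = 0.93, adjusted permutation p = 0.00765), and r was 0.78 without PIIO-1 tumors 4 and 5, the farthest in Arg2. Nt5e varied with Ptgs2 over tumors (r = 0.85, rho = 0.66), with Arg2 (r = 0.80, rho = 0.76) and with Adora2b (r = 0.79, rho = 0.79), each at an adjusted permutation p of 0.0186. Without PIIO-1 tumors 4 and 5 these 3 were 0.52, 0.55 and 0.54, so they rested in large part on those tumors. Adora2a and Ptges ran in opposite directions (r = -0.84, rho = -0.81, adjusted permutation p = 0.0186), and r was -0.78 without PIIO-1 tumors 1 and 4. On ranks, Arg2 with Ptgs2 passed (adjusted permutation p for rho = 0.0162). The rest of these pairs did not pass on ranks (0.0624 to 0.178). Nt5e passed on ranks only with Adora2a (r = 0.73, rho = 0.85) and with Ptges (r = -0.65, rho = -0.85). Their adjusted permutation p was 0.0908 and 0.117 for r, and 0.039 each for rho.

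With values centred within each group, 0 of the 45 pairs passed, and Arg2 with Ptgs2 had r = 0.90 (adjusted permutation p = 0.0656). Once PIIO-1 tumor 5 was left out, 0 pairs passed, and Arg2 with Ptgs2 had r = 0.85 (adjusted permutation p = 0.1004). Nos2 and Arg1, the rivals for arginine, had r = 0.59 and rho = 0.83 (adjusted permutation p = 0.234 for r). The cyclooxygenases leaned opposite ways, at r = -0.74 and rho = -0.70 (adjusted permutation p = 0.0972). Ido1 followed none of the other 9: its r lay between -0.23, with Nt5e, and 0.41, with Ptgs1.

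**Figure D4:**
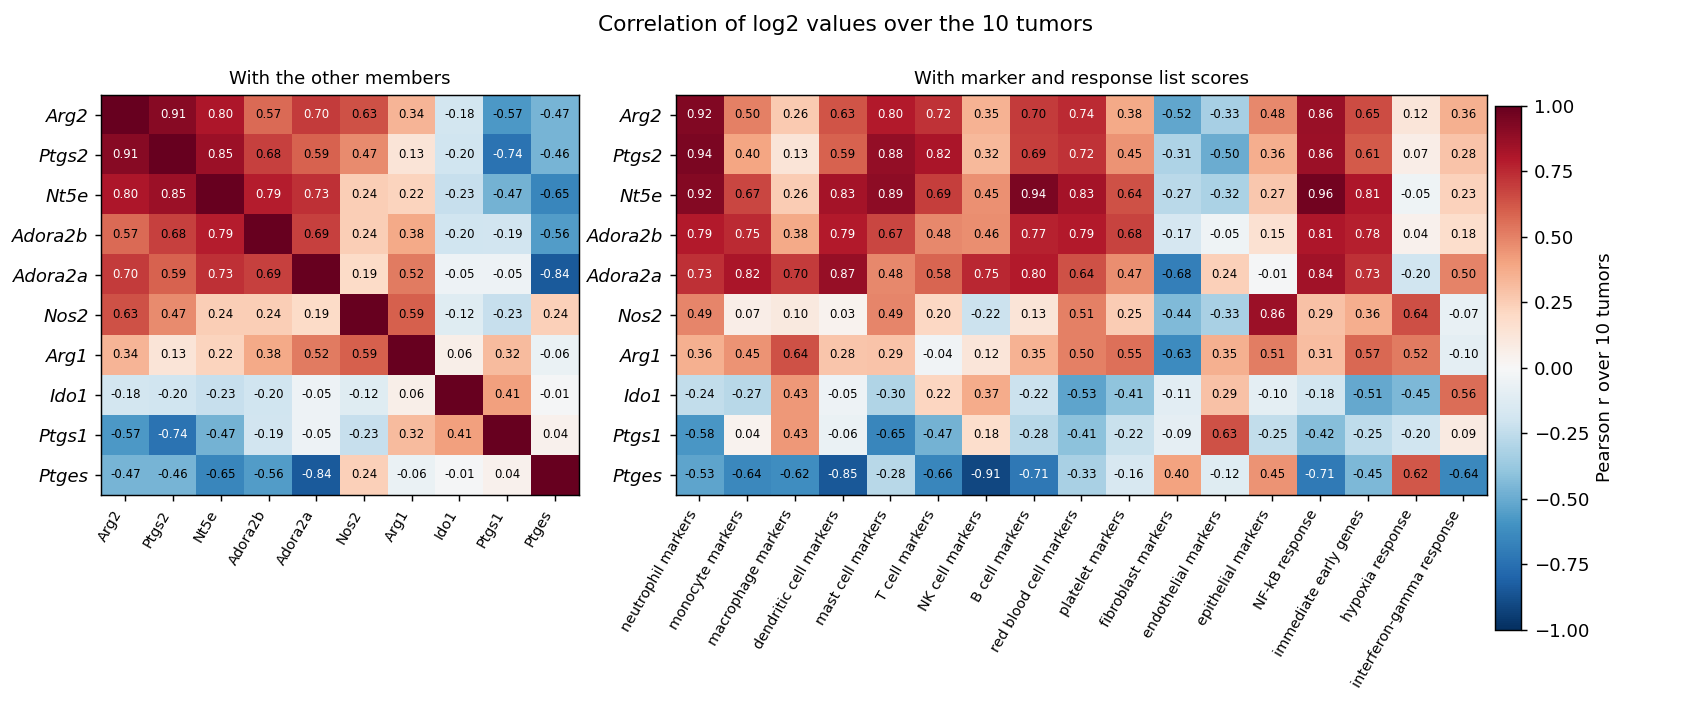
Pearson r over the 10 tumors of log2 values, for each of the 10 genes with the other 9 (left) and with the mean log2 scores of 13 marker and 4 response lists (right); red is positive and blue negative. Arg2, Ptgs2, Nt5e, Adora2b and Adora2a form a block of positive values that also holds neutrophil markers and the NF-kB response, while Ptges is mostly blue. The genes of that block are also positive with the other leukocyte lists, red blood cell and platelet markers and immediate early genes.

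Set against 13 cell type marker lists and 4 response lists, 53 of 170 relations had an unadjusted permutation p under 0.05, 27 an adjusted p under 0.05, and 13 an adjusted p under 0.05 with values centred within groups. Nt5e followed the NF-kB response most closely of all. This list of 8 genes (among them Nfkbia, Il1b, Il6 and Tnf) gave r = 0.96 and rho = 0.96, with a permutation p of 1e-05, the smallest the resamples can give, and an adjusted p of 0.0017. It was 0.96 centred within groups (adjusted p = 0.0118), 0.96 without PIIO-1 tumors 4 and 5, and 0.99 without PIIO-1 tumor 5 alone (adjusted p = 0.00562). The summed level of the list was 54955 to 142705 normalized counts in PIIO-1 tumors (median 70832) and 55422 to 91510 in PBS tumors (median 66126).

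Arg2 and Ptgs2 had their highest r with neutrophil markers, though other lists passed too. For Arg2, which granulocytic myeloid cells are known to express, r was 0.92 and rho 0.94 (adjusted permutation p = 0.00425), 0.95 centred within groups (adjusted p = 0.0177) and 0.83 without PIIO-1 tumors 4 and 5. For Ptgs2, r was 0.94 and rho 0.92 (adjusted permutation p = 0.00595), 0.94 centred (adjusted p = 0.0295) and 0.83 without the same tumors. Nt5e followed the same list at r = 0.92 and rho = 0.85 (adjusted permutation p = 0.00782), and 0.73 without those tumors. All 7 neutrophil markers were higher on average in PIIO-1 (51.1% of all genes had a positive log2 difference), with none at 0 in all tumors. Their sum was 15697 to 37582 normalized counts in PIIO-1 tumors (median 20583) and 13067 to 27122 in PBS tumors (median 16561). The part of these markers in the group differences of these 3 genes was not tested. Without PIIO-1 tumor 5, r with this list was 0.88 for Arg2 (adjusted p = 0.0570), 0.89 for Ptgs2 (adjusted p = 0.0666) and 0.88 for Nt5e (adjusted p = 0.0666).

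Neutrophil markers were not the sole cell type list to pass with these 3 genes. Nt5e had r = 0.94 with B cell markers (rho = 0.78, adjusted permutation p = 0.00595, 0.77 without PIIO-1 tumors 4 and 5) and 0.83 with dendritic cell markers (rho = 0.88, adjusted permutation p = 0.00914, 0.84 without them), and both passed centred within groups, at adjusted p of 0.0295 and 0.0331. Ptgs2 had r = 0.88 with mast cell markers (rho = 0.85, adjusted permutation p = 0.0173, 0.67 without those tumors) and 0.82 with T cell markers (rho = 0.71, adjusted permutation p = 0.0415, 0.71 without them), and both passed centred, at adjusted p of 0.0443 and 0.0177. Arg2 had r = 0.80 with mast cell markers (rho = 0.77, adjusted permutation p = 0.0173, 0.53 without those tumors). The NF-kB response passed with Arg2 (r = 0.86, rho = 0.79, adjusted permutation p = 0.00914) and Ptgs2 (r = 0.86, rho = 0.73, adjusted permutation p = 0.0237) but with neither when centred. Mast cell and red blood cell markers and immediate early genes also passed with Nt5e, at r between 0.81 and 0.89, and were 0.013, 0.13 and 0.20 without PIIO-1 tumors 4 and 5, on which they rested. None of these passed on ranks (adjusted permutation p for rho 0.217 to 0.36). Nt5e with B cell markers, Ptgs2 with T cell markers and Arg2 with mast cell markers did not pass on ranks either (0.0972, 0.158 and 0.115). Nor did the NF-kB response with Arg2 (0.0957) and Ptgs2 (0.137). Nt5e with dendritic cell markers (0.042) and Ptgs2 with mast cell markers (0.0434) did.

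**Figure D5:**
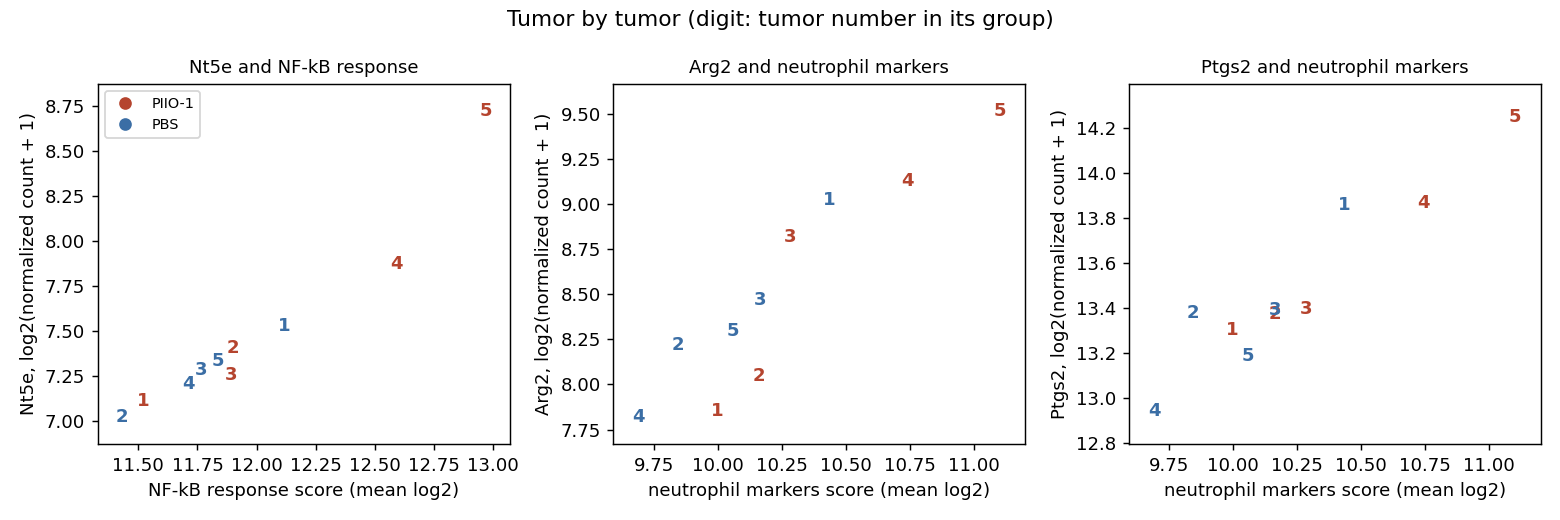
Each tumor's log2(normalized count + 1) of Nt5e against the NF-kB response score, and of Arg2 and Ptgs2 against the neutrophil marker score (each score is a mean log2 value), PIIO-1 in red and PBS in blue, drawn as tumor numbers. PIIO-1 tumors 4 and 5 and PBS tumor 1 make the upper end of all 3 panels.

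The adenosine receptors passed with several of the same lists. Adora2a followed dendritic cell markers (r = 0.87, rho = 0.81, adjusted permutation p = 0.0208, 0.86 without PIIO-1 tumors 1 and 4) and monocyte markers (r = 0.82, rho = 0.85, adjusted permutation p = 0.0415, 0.87 without the same tumors). Both passed with values centred within groups, at adjusted p of 0.0177 and 0.0328. NK cell markers passed with Adora2a only when centred (r = 0.86, adjusted p = 0.0397). Pooled, that relation had r = 0.75 (rho = 0.67, adjusted permutation p = 0.0688). Adora2a also passed with the NF-kB response (r = 0.84, rho = 0.88, adjusted permutation p = 0.0230) and B cell markers (r = 0.80, rho = 0.94, adjusted permutation p = 0.0430), neither of them when centred. Adora2b passed with 6 lists, namely neutrophil, dendritic cell, B cell and red blood cell markers, the NF-kB response and immediate early genes, at r between 0.77 and 0.81. None of these passed when centred, and r was between 0.40 and 0.50 without PIIO-1 tumors 4 and 5, on which they rested. On ranks, Adora2b passed with red blood cell markers alone (adjusted permutation p for rho = 0.0434). Adora2a passed on ranks with monocyte markers (0.0434), the NF-kB response (0.042) and B cell markers (0.0102), but not with dendritic cell markers (0.0957).

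Ptges ran against NK cell markers (r = -0.91, rho = -0.72, adjusted permutation p = 0.00914 for r and 0.154 for rho). It also ran against dendritic cell markers (r = -0.85, rho = -0.79, adjusted permutation p = 0.0189 for r and 0.0957 for rho). With the NF-kB response it passed on ranks only (r = -0.71, rho = -0.85, adjusted permutation p = 0.0825 for r and 0.0434 for rho). The NK relation was -0.94 centred within groups (adjusted p = 0.0295), -0.80 without PIIO-1 tumor 1 and PBS tumor 2, and -0.95 without PIIO-1 tumor 5 (adjusted p = 0.0122). It and Nt5e with the NF-kB response were the 2 relations that passed without PIIO-1 tumor 5. Nos2 followed the epithelial marker score (r = 0.86, rho = 0.75, adjusted permutation p = 0.0430). This relation was 0.39 without PIIO-1 tumor 2 and PBS tumor 4 and so rested on those tumors. Krt5 of that list was lowest in the same tumors, at 1.96 and 4.68 normalized counts. It varied 70.9-fold over all tumors, and the other tested genes of the list varied 1.19-fold (Krt18) to 5.13-fold (Cdh1). Ido1, Arg1 and Ptgs1 passed with no list. Arg1 had its highest r, 0.64, with macrophage markers (rho = 0.59, adjusted permutation p = 0.159), 0.77 without PBS tumors 1 and 4.

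Across the whole table, the genes most like each of the 10 over the tumors were ranked by Pearson r of log2 values, as a description of 10 tumors. Ido1 was nearest to Dynlt1a (r = 0.92) and Sept4 (0.90), and Nos2 to Ddit3 (0.95) and Fbxl2 (0.95). Arg1 was nearest to Dab2 (0.95) and Snx1 (0.95), and Arg2 to Stxbp5 (0.99) and Arid5b (0.98). Nt5e was nearest to Dgat2 (0.98) and Rassf3 (0.97), Adora2a to Stx7 (0.97) and Traf3 (0.97), and Adora2b to Stk40 (0.96) and Cyb5r4 (0.96). Ptgs1 was nearest to Srgap2 (0.93) and Fcgrt (0.93), Ptgs2 to Cd14 (0.98) and Mcemp1 (0.98), and Ptges to Cd34 (0.97) and Zfyve9 (0.95). How many genes lay above r = 0.9 differed widely: 193 for Adora2a, 128 for Nt5e, 126 for Arg2, 96 for Ptgs2, 34 for Ptges and 22 for Arg1, against 9 for Adora2b, 5 for Nos2 and 4 each for Ido1 and Ptgs1.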

How the data were processed

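Bulk RNA-seq of 5 PIIO-1 and 5 PBS tumors was analysed, grouped by the treatment label. The deposited signal values are gene counts that the authors normalized; per the submitters' processing notes HISAT2, featureCounts and DESeq2 were used with build GRCm38. For tool versions, annotation and strandedness, nothing is given in the sources used here. Without strand, overlapping genes on opposite strands cannot be told apart. Dividing each deposited column by its smallest step gave whole reads for 100% of values (within 0.001 read). Every pair of libraries differed beyond counting noise (chi-square per gene at least 9.80).

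Values were taken as log2(normalized count + 1), which understates the change of low genes, for 16767 genes with a mean of at least 10. The test was limma 3.58.1 (R 4.3.3) with a trend on intensity for the contrast of PIIO-1 against PBS, two-sided, with Benjamini-Hochberg adjustment over all genes tested and a threshold of 0.05. On simulated data for this comparison (16767 genes, 200 changed) it recovered 48% of genes changed 1.5-fold and 70% at 2-fold. It recovered 94% at 3-fold and 92% at 4-fold, and 6.75% of its calls were false. The changed genes were drawn from all 16767, and genes were simulated independently. All of the 10 genes but Ptges varied more within groups than at least 64.4% of tested genes, so these rates are not rates for them. Correlations over 10 tumors used permutation p-values (100000 resamples, two-sided, scipy 1.17.1). They were adjusted over 45 pairs or 170 relations of genes with list scores (mean log2 value of a list). An adjusted p printed beside r and rho is that of r unless stated. Values centred within a group were permuted within it. Levels per kilobase, coordinates and overlaps used the GENCODE annotation of GRCm38. DESeq2 1.42.0 (Wald test) and edgeR 4.0.16 (quasi-likelihood test) were run on the recovered whole reads as alternatives. Further alternatives changed the pseudocount (0.5, 5), the minimum mean (none, 50), the scaling (upper quartile, TMM), the limma settings (array weights, no trend), added the replicate number or Ptprc to the model, or left out each tumor in turn.

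Besides the 10 genes, the text names, of each route and of the cyclic AMP list, the 3 partners with the lowest p, a fixed set of partners (Ido2, Tdo2, Kmo, Kynu, Ahr, Nos1, Nos3, Ass1, Slc7a2, Odc1, Entpd1, Ada, Adora1, Adora3, Ptger2, Ptger4, Hpgd and Pla2g4a) and the 2 genes most like each of the 10. The genes and lists were chosen with earlier results of these data known. Of all the listed genes, 7 were not analysed here, Adora1 among them.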

Additional observations from a re-analysis of the deposited data

Results flagged for a closer look

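Within-group values were screened for a tumor far from the others of its group by Dixon's gap over range, with a critical value of 0.71 for 5 samples. Of 20 groups (10 genes in PIIO-1 and in PBS tumors) 2 held such a tumor, and chance alone gives about 1 in 20. Ido1 in PBS tumor 3 was 469.5 normalized counts, with the next PBS tumor at 314 and a gap of 0.738 of the range; without that tumor the log2 difference of PIIO-1 minus PBS was -0.37. Nos2 in PBS tumor 4, the library of the lowest depth, was 3486 normalized counts, with the next PBS tumor at 6934 and a gap of 0.723 of the range; without that tumor the log2 difference was -0.14, of the other sign.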

How the results depend on the processing

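Over 23 alternatives for each of the 10 genes (230 values), 0 passed the adjusted threshold (lowest adjusted p 0.5002, among the alternatives and genes run) and 221 kept the sign of the reported difference. The log2 difference of Nos2 turned to -0.046 with array weights and -0.18 without PIIO-1 tumor 5 and PBS tumor 4 (chosen after seeing the data), and ranged from -0.14 to 0.26 with each tumor left out. Arg2 turned to -0.042 without PIIO-1 tumor 5 and PBS tumor 4. Ptges turned to 0.011 with Ptprc (CD45) as a covariate, and ranged from -0.092 to 0.010 with each tumor left out. The causes were not tested. Ido1 had an unadjusted p under 0.05 in 15 of its 23 alternatives and Adora2b in 13.

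Over the whole table DESeq2 called 3 genes, and the number at unadjusted p under 0.05, 944 in limma, was 1426 with Ptprc as a covariate, 607 without PIIO-1 tumor 5 and PBS tumor 4, and 621 to 1655 with each tumor left out, lowest when PIIO-1 tumor 5 and highest when PIIO-1 tumor 1 was missing. Correlated pairs numbered 0 with values centred within groups and 0 to 6 with each tumor left out, and relations of genes with lists 13 centred and 2 (without PIIO-1 tumor 5) to 35. The replicate numbers did not pair the tumors (correlations of same-numbered deviations -0.21, -0.13, 0.095, -0.021 and 0.024); with the replicate number as a block, 0 genes were called and 885 had an unadjusted p under 0.05. Each of the 10 genes was well above 3 reads in every tumor.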
